A study of Mus musculus with 9 samples.

Results

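The genes described here build, anchor or cut the extracellular matrix around esophageal epithelial cells: integrin and laminin chains, collagens, basement membrane components, matrix proteins such as fibronectin, matrix receptors, and the proteases and inhibitors that remodel them. They were chosen by gene symbol. Symbols beginning with Itga, Itgb and a digit, Adamts or Thbs were taken, as were laminin chains (Lama, Lamb, Lamc), collagen chains (Col), Mmp and Timp genes, and Fn1, Tgfbi, Plau, Plaur, Dst, Plec, Pdpn, Cd44, Nid1, Nid2, Hspg2, Sparc and Tnc. Of 8742 genes in the union of the authors' 3 tables, 55 met this rule, against 153 protein-coding genes that meet it in the GENCODE M21 annotation. Each table holds only genes that the authors called at an adjusted p under 0.05 for its pair of groups, so every one of the 55 was called by the authors in at least 1 pair. Nid1, Nid2, Sparc and Tnc stand in none of the 3 tables. The symbols Itgb1bp1 and Itgb3bp meet the rule, although they encode proteins that bind integrin tails and not integrin chains, and Adamtsl4 and Adamtsl5 encode ADAMTS-like proteins that lack the protease domain.

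The libraries were made from organoids of mouse esophageal epithelium, small bodies that such cells form in culture, on day 7 after seeding and without treatment. The groups of 3 libraries each were organoids labelled PCN, as knockouts of Trp53, Cdkn2a and Notch1; organoids labelled PN, as knockouts of Trp53 and Notch1; and unedited wild-type (WT) organoids. The labels do not give the strain, the age, the number of clones behind each knockout or the kind of edit or whether replicate libraries are separate cultures, so the p-values reflect the spread among these libraries, which may be technical. The genes given for each library held 12004122 to 13653905 counts in the PCN libraries, 11763682 to 13289732 in the PN libraries and 12251945 to 12546593 in the WT libraries, which is a lower limit on their depth.

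The targeted genes were measured as a check of the labels. Trp53 stood at 0.624 to 0.979 FPKM (fragments scaled by gene length and library size) in the libraries labelled PCN, 0.562 to 0.801 in PN and 29.2 to 30.0 in WT. Notch1 stood at 4.67 to 5.40 FPKM in PCN, 9.87 to 10.8 in PN and 15 to 19.5 in WT. Cdkn2a went against the label of its knockout and was highest there, with 53.2 to 59.9 FPKM in PCN, 18.3 to 19.4 in PN and 5.54 to 8.83 in WT. RNA levels do not tell whether an edit removed the protein, so the label is used as a name throughout. Within each group the libraries had pairwise correlations of log expression of 0.9959 to 0.9967 in PCN, 0.9963 to 0.9967 in PN and 0.9895 to 0.9947 in WT across genes, which are not independent replicates.

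The labelled cell type was read from markers of squamous epithelium and of other cells. All 4 basal markers (Krt5, Krt14, Krt15 and Trp63) and all 6 suprabasal markers (Krt13, Krt4, Krt6a, Ivl, Sprr3 and Mal) were in the tables. The suprabasal markers summed to 2859 to 2969 FPKM in PCN, 2608 to 2757 in PN and 15320 to 16220 in WT, with falls for all 6 in PCN against WT and for all 5 listed in PN against WT. Most of the WT sum came from Krt13 (8376 to 9084 FPKM) and Krt4 (5128 to 5508). Ivl was not listed in PN against WT, with 11.3 to 11.8 FPKM in PN and 9.82 to 12.8 in WT. The basal markers summed to 4893 to 5287 FPKM in PCN and 4470 to 4770 in PN. Of these sums, Krt5 gave 2581 to 2860 FPKM in PCN and 2904 to 3108 in PN. Krt5 was listed in neither pair with WT and had no WT values. The other 3 summed to 1150 to 1491 FPKM in WT, a sum that cannot be set against those with Krt5. All 3 basal markers listed in PCN against WT (Krt14, Krt15 and Trp63) and both listed in PN against WT (Krt15 and Trp63) rose. Krt14 was not listed in PN against WT, with 1067 to 1158 FPKM in PN and 939 to 1247 in WT. In PCN against PN, Krt15 was higher by a log2 value of 1.17 ± 0.04 and Krt14 by 0.31 ± 0.04. Krt5 was lower there by -0.14 ± 0.04, and Trp63 was not listed. Of the 5 suprabasal markers listed in that pair, 2 rose (Mal by 0.55 and Krt13 by 0.41) and 2 fell (Ivl by -0.45 and Krt4 by -0.18). Suprabasal and basal cells carry different adhesion genes, and in bulk RNA fewer cells of a type and less RNA per cell cannot be told apart. The part of these marker changes in the matrix gene changes was not tested in any pair.

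As background, stratified epithelia stand on a basement membrane, a sheet built from laminin and type IV collagen networks that perlecan and nidogen link together. Basal cells hold to it through hemidesmosomes, in which integrin α6β4 and collagen XVII bind laminin-332 outside the cell and plectin and the epithelial form of dystonin tie the complex to keratins inside. Other integrins, such as α3β1, α2β1, α5β1 and αvβ6, bind laminin, collagen or fibronectin at focal contacts. Matrix metalloproteinases (MMPs), ADAMTS proteases and the plasmin system cut these components, and TIMPs inhibit the MMPs.

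In the PCN-labelled organoids, more of these genes were higher than lower relative to PN, while the comparisons with WT were close to balanced or leaned lower. In PCN against PN, 28 of the 55 (50.9%) were listed by the authors, against 41.3% of the 8742 genes, 27 remained after the filter on low counts, and 21 rose and 6 fell. Those 21 are 38.2% of the 55, against a background of 20.7% of all 8742 genes called higher, and the 6 are 10.9%, against 19.4% called lower. Their median log2 fold change was 0.82, against 0.16 for all genes tested. In PCN against WT, 46 (83.6%, background 76.4%) were listed and 43 remained after the filter. Of these, 22 rose (40.0% of the 55, background 34.6%) and 21 fell (38.2%, background 37.6%), with a median of 0.27 against -0.28 for all genes tested. In PN against WT, 38 (69.1%, background 74.9%) were listed and all of them remained. Of these, 14 rose (25.5%, background 34.6%) and 22 fell (40.0%, background 36.9%), with a median of -0.34 against -0.26. Since the tables hold only called genes, these shares describe the listed genes and not the transcriptome. The 3 comparisons share libraries and are not independent of each other. Changes of at least 2-fold were found for 44.4% of those tested in PCN against PN (19.2% of all genes tested), 65.1% in PCN against WT (31.4%) and 57.9% in PN against WT (28.9%). These shares are not matched for expression level, and genes with few counts pass a test only with large changes. Itga2, Hspg2 and Pdpn, which changed over 2-fold in PCN against PN, averaged under 1 FPKM in PN.

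**Figure D1:**
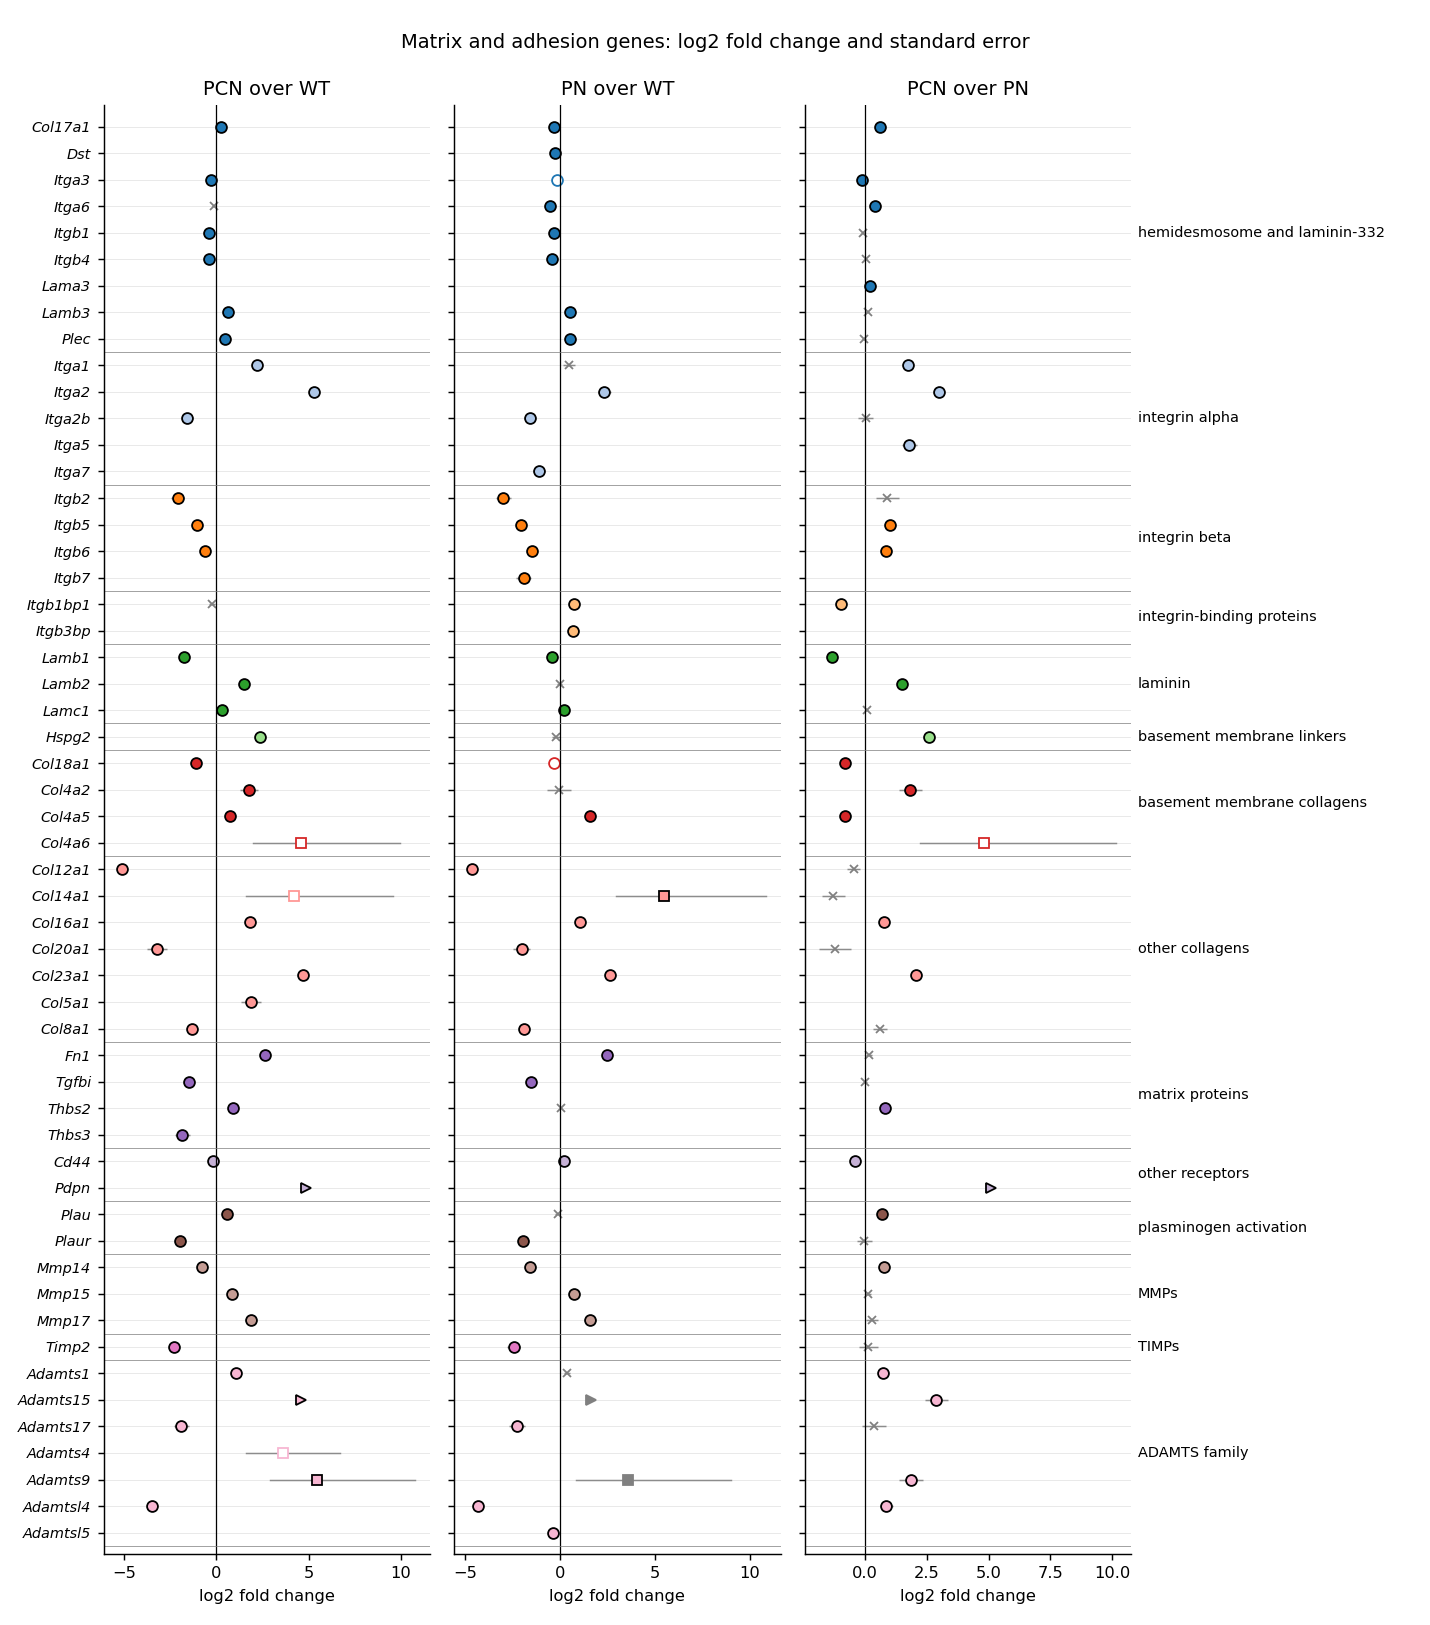
Log2 fold changes of 54 of the genes, grouped by role, in PCN over WT, PN over WT and PCN over PN, with standard errors as bars. Filled symbols passed the test at an adjusted p of 0.05, open ones were listed by the authors but did not pass or fell under the count filter, and grey ones were not listed for that pair. Triangles are lower bounds against a group with no counts, and squares are ratios against a group with 1 to 3 counts, with 95% intervals. Most symbols of the third panel lie right of 0, and the hemidesmosome genes with values lie near 0 in all panels.

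The most abundant of the genes were those of basal cell adhesion. Of the 44 genes with values in all 9 libraries, 17 averaged at least 5 FPKM in PCN, 15 in PN and 16 in WT, and 17, 20 and 17 averaged under 1 FPKM in the same groups. The 5 highest were Col17a1, Itga3, Itgb1, Itgb4 and Cd44 in every group. All 10 genes of the hemidesmosome and laminin-332 group were in the tables, and none of them changed 2-fold in any pair in which both groups had values.

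Itga6 encodes the integrin α6 chain of the hemidesmosome. It stood at 88.5, 93.3 and 89.1 FPKM in the PCN libraries, 68.7, 68.6 and 71.0 in PN, and 95.6, 99.1 and 107 in WT. The PN libraries lay below all others. It was lower in PN than in WT (log2 fold change -0.53 ± 0.07 (SE), adjusted p = 3.7e-05) and higher in PCN than in PN (0.38 ± 0.04, adjusted p = 1.8e-08). Itgb4, its β4 partner, stood at 141, 146 and 142 FPKM in PCN, 138, 141 and 140.3 in PN, and 181, 204 and 180.3 in WT. Here both edited groups lay below WT, by -0.39 ± 0.07 in PCN (adjusted p = 6.4e-04) and -0.42 ± 0.07 in PN (adjusted p = 2.8e-04). The FPKM ratio of Itgb4 to Itga6 was 1.56 to 1.60 in PCN, 1.98 to 2.05 in PN and 1.68 to 2.06 in WT.

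Itga3 and Itgb1 encode the chains of the laminin receptor α3β1. Itga3 stood at 204, 210.5 and 220.2 FPKM in PCN, 230.3, 231 and 233 in PN, and 255, 269 and 255 in WT, so that the 3 groups did not overlap. It fell in PCN against WT (-0.29 ± 0.07, adjusted p = 0.0035). In PCN against PN it also fell, by a log2 value of -0.13 ± 0.04 (adjusted p = 0.018), a call that was lost without PCN replicate 1, PN replicate 2 or PN replicate 3 (adjusted p up to 0.12). In PN against WT its log2 value of -0.16 ± 0.06 did not pass (adjusted p = 0.066), but passed without WT replicate 3 (adjusted p = 0.013). Itgb1 stood at 143, 149.6 and 138 FPKM in PCN, 153, 147 and 159 in PN, and 185, 183 and 201 in WT. It was lower in both edited groups, by -0.40 ± 0.07 in PCN (adjusted p = 5.8e-04) and -0.30 ± 0.07 in PN (adjusted p = 0.0033).

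Lama3 and Lamb3 encode chains of laminin-332, the main ligand of the hemidesmosome. Lamb3 stood at 65.2, 66.2 and 68.0 FPKM in PCN, 65.0, 59.6 and 60.9 in PN, and 45.6, 42.1 and 39.8 in WT. Its edited groups lay above every WT library, by 0.65 ± 0.08 in PCN (adjusted p = 9.9e-06) and 0.55 ± 0.07 in PN (adjusted p = 4.7e-05). Lama3 had 15.6, 15 and 14.4 FPKM in PCN, against 12.2, 13.9 and 13.4 in PN. Its log2 fold change was 0.19 ± 0.05 (adjusted p = 0.0058), and up to an adjusted p of 0.092 without PCN replicate 1 or PN replicate 1.

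Col17a1, the transmembrane collagen of the hemidesmosome, differed between all 3 groups. It stood at 271, 290.4 and 277 FPKM in PCN, 189, 189.9 and 183 in PN, and 248, 253 and 198 in WT, where replicate 3 lay apart from the others. Relative to PN it rose in PCN by a log2 value of 0.58 ± 0.04 (adjusted p = 3.5e-12). Against WT the log2 values were 0.27 ± 0.09 in PCN (adjusted p = 0.032) and -0.30 ± 0.09 in PN (adjusted p = 0.015). The fold changes against WT were small, and their calls did not hold with every library left out. The PCN call was lost without PCN replicate 1, 2 or 3 or WT replicate 3 (log2 values of 0.16 to 0.29, the lowest without WT replicate 3, adjusted p up to 0.15), and the PN call without PN replicate 2 or 3 or WT replicate 2 (log2 values of -0.31 to -0.24, adjusted p up to 0.093).

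The cytoplasmic linkers moved in opposite directions in PN. Plec, which encodes plectin, stood at 44.2, 42.4 and 45.7 FPKM in PCN, 42.9, 48.9 and 45.1 in PN, and 28.5, 37.3 and 30.1 in WT. It was higher by 0.47 ± 0.10 in PCN (adjusted p = 0.0014) and 0.52 ± 0.10 in PN (adjusted p = 7.3e-04). Dst, which encodes dystonin in epithelial, neuronal and muscle forms that a count over the gene does not separate, had 7.82, 8.42 and 8.19 FPKM in PN, against 9.26, 10.7 and 9.81 in WT. It was lower by -0.27 ± 0.07 (adjusted p = 0.0079), with an adjusted p of 0.055 without PN replicate 1. For the pairs in which a gene of this group was not listed by the authors, a fit of all 9 libraries gave log2 values of -0.16 for Itga6 in PCN against WT, and of -0.09 for Itgb1, 0.03 for Itgb4, 0.10 for Lamb3 and -0.05 for Plec in PCN against PN.

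**Figure D2:**
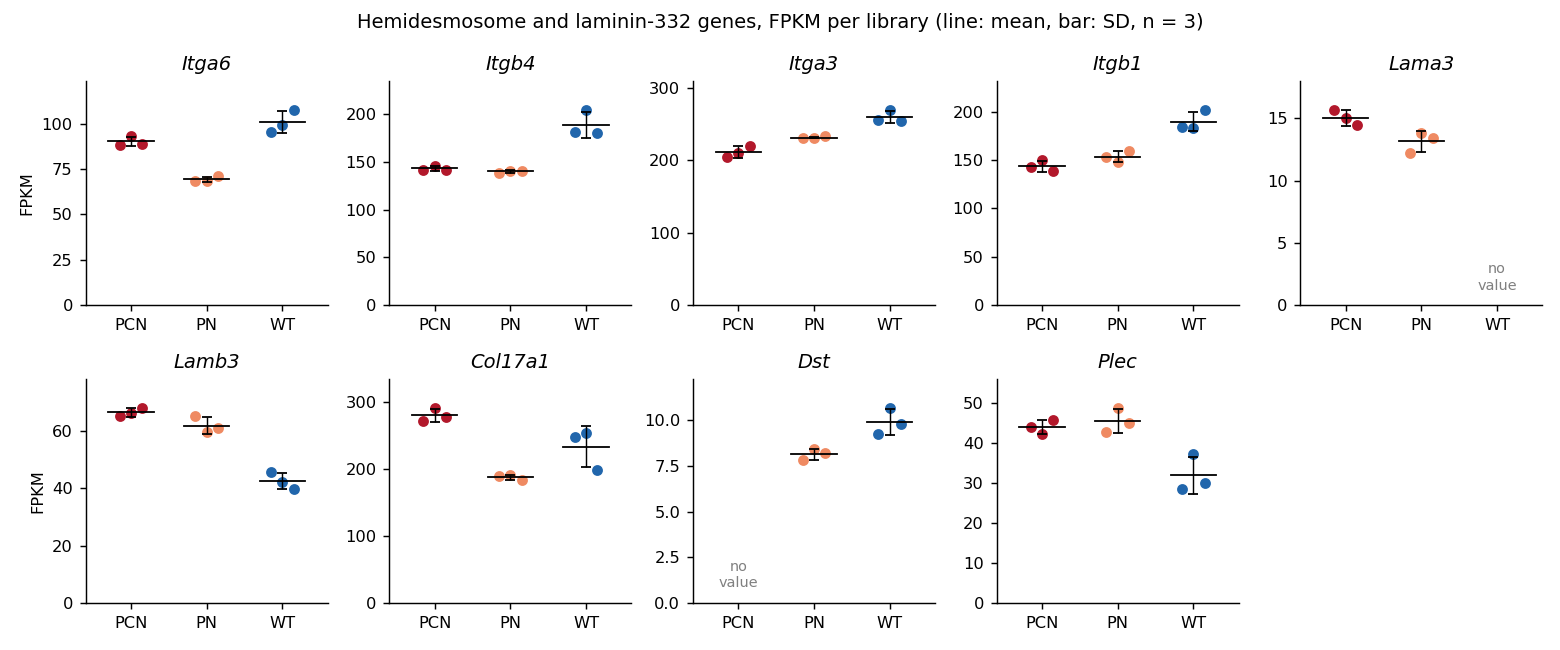
FPKM of 9 hemidesmosome and laminin-332 genes in each library of the organoids labelled PCN, PN and WT, with the mean and SD of 3 libraries, and axes that start at 0. Itga6 is lowest in PN, Itgb4 and Itgb1 are lower in both edited groups than in WT, and Lamb3 and Plec are higher in both. Groups marked as having no value had none in the deposited tables.

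Among the other integrin α chains in the tables, 2 collagen-binding chains rose in PCN against both PN and WT. Itga2, which pairs with β1 as a receptor for collagen, stood at 3.12, 2.51 and 2.61 FPKM in PCN, 0.299, 0.347 and 0.393 in PN, and 0.0655, 0.0668 and 0.0743 in WT. The 3 groups were fully separate. The rise was 39.4-fold in PCN against WT (5.30 ± 0.22, adjusted p = 3.2e-10), 5.01-fold in PN against WT (2.33 ± 0.34, adjusted p = 1.2e-04) and 7.89-fold in PCN against PN (2.98 ± 0.15, adjusted p = 9.3e-16). The WT level rests on 7, 7 and 8 counts. Itga1, also a collagen receptor chain, stood at 0.341, 0.355 and 0.294 FPKM in PCN, 0.105, 0.0760 and 0.114 in PN, and 0.0754, 0.0476 and 0.0891 in WT. It rose in PCN by 2.22 ± 0.26 against WT (adjusted p = 1.1e-05) and 1.74 ± 0.21 against PN (adjusted p = 9.0e-08). In PN against WT it was not listed, and its log2 value was 0.48 ± 0.29.

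The 2 genes lie on the same strand of chromosome 13 (Itga2 at 114833081 to 114932100 and Itga1 at 114953096 to 115101964, GRCm38), with 21.0 kb between them. Their promoters are shown because the neighbouring genes moved in the same direction in PCN. The 250 bases before each RefSeq gene start (GRCm38.p6, minus strand, 5′ to 3′) were searched on both strands for AP-1 (TGANTCA), TEAD (GGAATG) and Sp1 (GGGCGG) motifs, and matches are in capitals wherever a promoter is printed. Neither stretch holds a match, but with the 50 bases after the start included the promoter of Itga2 holds the Sp1 letters.
Itga1, chr13:115101965-115102214: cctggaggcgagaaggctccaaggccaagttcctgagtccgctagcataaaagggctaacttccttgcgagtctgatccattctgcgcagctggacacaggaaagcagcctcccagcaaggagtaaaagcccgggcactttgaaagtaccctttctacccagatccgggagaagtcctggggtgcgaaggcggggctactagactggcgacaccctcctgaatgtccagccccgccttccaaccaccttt
Itga2, chr13:114932101-114932350: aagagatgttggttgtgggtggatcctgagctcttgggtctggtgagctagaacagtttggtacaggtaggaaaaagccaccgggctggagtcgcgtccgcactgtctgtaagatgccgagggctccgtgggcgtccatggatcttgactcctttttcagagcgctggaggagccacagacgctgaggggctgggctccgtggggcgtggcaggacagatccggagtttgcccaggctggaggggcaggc
Over the whole table of 32851 RefSeq promoters, from 250 bases before to 50 after the start, 7.8% hold the AP-1 letters, 14.7% the TEAD letters and 35.7% the Sp1 letters. Promoters of 40 of the 55 genes were in the table. Of these, 1 (2.5%, Plaur) held the AP-1 letters, 3 (7.5%) the TEAD letters and 28 (70.0%) the Sp1 letters. A match describes the letters only, and for Lamb3, Itgb3bp and Dst the promoter in the table lies 94295 to 103370 bases from the annotated start of the gene.

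Itga5, the α chain of the fibronectin receptor, had 0.622, 0.465 and 0.816 FPKM in PCN, against 0.180, 0.251 and 0.129 in PN. It was 3.42-fold higher (1.78 ± 0.30, adjusted p = 2.6e-05), and its WT values were not given. Itga2b, known from the platelet fibrinogen receptor, stood at 0.408, 0.410 and 0.482 FPKM in PCN, 0.468, 0.475 and 0.349 in PN, and 1.81, 1.30 and 0.790 in WT. It fell in both edited groups, by -1.58 ± 0.29 in PCN (adjusted p = 5.9e-04) and -1.59 ± 0.29 in PN (adjusted p = 7.7e-04). Itga7, a laminin receptor chain best known from muscle, had 0.220, 0.131 and 0.150 FPKM in PN, against 0.322, 0.437 and 0.319 in WT. Its fall of -1.09 ± 0.30 (adjusted p = 0.011) was lost without PN replicate 2 or WT replicate 2 (adjusted p up to 0.058).

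The other integrin β chains fell relative to WT in each pair that lists them. Of 6 such genes in the annotation besides those of β1 and β4, 4 were in the tables, which hold called genes only. All 4 were listed in PN against WT and fell there, and the 3 with PCN values fell in PCN against WT too. Of all 8742 genes, 36.9% were called lower in PN against WT and 37.6% in PCN against WT. Itgb5, which pairs with αv, stood at 5.21, 5.17 and 6.18 FPKM in PCN, 3.01, 2.67 and 2.68 in PN, and 10.7, 11.8 and 11.9 in WT. It fell by -1.05 ± 0.11 in PCN (adjusted p = 2.5e-06) and -2.03 ± 0.11 in PN (adjusted p = 9.9e-09), and was higher in PCN than in PN by 0.99 ± 0.11 (adjusted p = 2.6e-08). Itgb6, the epithelial partner of αv that activates TGF-β, stood at 0.752, 0.759 and 0.800 FPKM in PCN, 0.275, 0.431 and 0.573 in PN, and 1.19, 1.27 and 1.06 in WT. It showed the same order, with -0.61 ± 0.17 in PCN against WT (adjusted p = 0.0094), -1.44 ± 0.24 in PN against WT (adjusted p = 2.8e-04) and 0.84 ± 0.21 in PCN against PN (adjusted p = 0.0026). Itgb2 and Itgb7 encode chains found mainly on leukocytes. Itgb2 had 0.211, 0.169 and 0.246 FPKM in PCN, 0.0777, 0.135 and 0.121 in PN, and 0.700, 1.16 and 0.847 in WT, a fall of -2.09 ± 0.35 in PCN (adjusted p = 2.4e-04) and -2.97 ± 0.39 in PN (adjusted p = 4.8e-05). Itgb7 had 0.343, 0.404 and 0.115 FPKM in PN, against 0.844, 1.01 and 1.36 in WT, a fall of -1.90 ± 0.40 (adjusted p = 0.0018). None of the 6 leukocyte markers looked for stood in any table, so their levels are not known here and their part in these falls was not tested.

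The 2 integrin-binding proteins rose in PN. Itgb1bp1, which binds the β1 tail and restrains its activation, stood at 1.89, 2.01 and 1.65 FPKM in PCN, 4.13, 3.68 and 3.35 in PN, and 2.66, 1.92 and 2.04 in WT. It was higher in PN than in WT by 0.76 ± 0.16 (adjusted p = 0.0017) and lower in PCN than in PN by -1.0 ± 0.13 (adjusted p = 4.6e-07). Of its exon bases, 11.4% are shared with Asap2 and 5.54% with Cpsf3, both on the opposite strand. Since the counting is not stated, their reads cannot be told apart. Itgb3bp, which is also a centromere protein, had 1.31, 1.64 and 1.93 FPKM in PN, against 0.808, 0.764 and 1.43 in WT. Its groups overlapped, and its rise of 0.71 ± 0.25 (adjusted p = 0.037) was lost without PN replicate 2 or 3 or WT replicate 1 or 2 (adjusted p up to 0.19).

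The β1 and β2 laminin chains changed in opposite directions in the PCN-labelled organoids. Both pair with the γ1 chain. Lamb1 (chromosome 12, 31265234 to 31329644) stood at 3.22, 3.18 and 3.50 FPKM in PCN, 8.55, 7.99 and 8.75 in PN, and 10.4, 11.4 and 11.7 in WT. It was lowest in every PCN library, with a fall of -1.75 ± 0.08 against WT (adjusted p = 1.2e-09) and -1.35 ± 0.06 against PN (adjusted p = 3.3e-16), and it fell in PN against WT by -0.39 ± 0.07 (adjusted p = 8.1e-04). Lamb2 (chromosome 9, 108479736 to 108490530) stood at 6.90, 7.38 and 7.29 FPKM in PCN, 2.68, 2.65 and 2.43 in PN, and 2.62, 3.08 and 2.12 in WT. It rose in PCN by 1.47 ± 0.12 against WT (adjusted p = 4.8e-07) and 1.47 ± 0.08 against PN (adjusted p = 7.1e-15). It was not listed in PN against WT, where its log2 value was -0.01 ± 0.12. The FPKM ratio of Lamb1 to Lamb2 was thus 0.431 to 0.480 in PCN, against 3.01 to 3.59 in PN and 3.70 to 5.49 in WT. Lamc1, the shared γ1 chain, moved far less, with 22.2, 22.5 and 22.0 FPKM in PCN, 21.0, 21.5 and 21.6 in PN, and 17.1, 20 and 17.8 in WT. It was higher by 0.29 ± 0.08 in PCN (adjusted p = 0.0083) and 0.24 ± 0.07 in PN (adjusted p = 0.019). The PN call was lost without PN replicate 1, 2 or 3 or WT replicate 1 (adjusted p up to 0.079).

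Hspg2 encodes perlecan, the heparan sulfate proteoglycan that joins laminin and collagen IV networks (chromosome 4, 137468769 to 137570630). It stood at 1.52, 1.44 and 1.48 FPKM in PCN, 0.220, 0.251 and 0.273 in PN, and 0.257, 0.390 and 0.213 in WT. The PCN libraries lay above all others and the PN and WT libraries overlapped. The rise was 5.17-fold against WT (2.37 ± 0.18, adjusted p = 1.9e-07) and 5.93-fold against PN (2.57 ± 0.13, adjusted p = 9.3e-16), while the log2 value in PN against WT, where it was not listed, was -0.20 ± 0.20. Its promoter and that of Pdpn, the podoplanin gene, whose counts were found in PCN alone, are shown because both genes were higher in PCN than in PN and WT.
Hspg2, plus strand, chr4:137468553-137468802: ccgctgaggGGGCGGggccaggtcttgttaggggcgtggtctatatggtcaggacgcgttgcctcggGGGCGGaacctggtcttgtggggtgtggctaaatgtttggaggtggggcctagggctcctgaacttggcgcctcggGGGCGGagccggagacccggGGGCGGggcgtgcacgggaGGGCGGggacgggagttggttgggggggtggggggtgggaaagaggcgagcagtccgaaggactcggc
Pdpn, minus strand, chr4:143299565-143299814: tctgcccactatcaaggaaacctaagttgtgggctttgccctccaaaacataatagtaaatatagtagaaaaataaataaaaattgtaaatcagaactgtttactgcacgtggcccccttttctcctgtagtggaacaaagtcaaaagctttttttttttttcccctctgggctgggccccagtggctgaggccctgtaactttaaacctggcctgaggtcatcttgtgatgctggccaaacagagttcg
The 250 bases of Hspg2 hold 5 matches to the Sp1 letters, at -241, -183, -107, -87 and -68 from the start, and 70.0% of their bases are G or C. Those of Pdpn hold no match and are 43.2% G or C. In the longer stretch used for the promoter shares, which also covers bases after the start, Pdpn holds the Sp1 letters.

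Of the basement membrane collagens, Col18a1 fell and Col4a2 rose in PCN against both PN and WT, and Col4a5 was highest in PN. Col18a1, whose C-terminal part is released as endostatin, stood at 35.1, 36.8 and 39.4 FPKM in PCN, 66.9, 66.0 and 60.7 in PN, and 94.0, 86.3 and 62.5 in WT. It fell in PCN by -1.12 ± 0.13 against WT (adjusted p = 7.3e-05) and -0.80 ± 0.05 against PN (adjusted p = 2.5e-13). In PN against WT its log2 value of -0.32 ± 0.13 did not pass (adjusted p = 0.11), but without WT replicate 3, the lowest of its group, it was -0.47 ± 0.06 (adjusted p = 3.7e-07). Col4a5, the α5 chain of epithelial type IV collagen, stood at 0.914, 1.08 and 0.895 FPKM in PCN, 1.63, 2.01 and 1.42 in PN, and 0.636, 0.547 and 0.523 in WT. The groups were separate, with PN highest. The log2 fold change was 0.76 ± 0.19 in PCN against WT (adjusted p = 0.0063), 1.58 ± 0.18 in PN against WT (adjusted p = 1.5e-05) and -0.81 ± 0.14 in PCN against PN (adjusted p = 5.1e-05).

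Col4a6, its partner α6 chain, had 15, 7 and 8 counts in PCN, 1, 0 and 0 in PN, and 0, 0 and 1 in WT. It fell under the count filter, and the ratio of its summed counts, scaled by library, was 23.9 in PCN over WT (95% interval 3.98 to 977) and 28.1 in PCN over PN (4.68 to 1150), where the intervals cover counting error only. Col4a5 and Col4a6 lie head to head on the X chromosome with 1.3 kb between the annotated genes, and their order across groups was not the same: Col4a5 was highest in PN, where Col4a6 had 1 count in all. The 250 bases before each start are shown because the genes start close to each other, and the 2 stretches do not overlap.
Col4a5, plus strand, chrX:141475169-141475418: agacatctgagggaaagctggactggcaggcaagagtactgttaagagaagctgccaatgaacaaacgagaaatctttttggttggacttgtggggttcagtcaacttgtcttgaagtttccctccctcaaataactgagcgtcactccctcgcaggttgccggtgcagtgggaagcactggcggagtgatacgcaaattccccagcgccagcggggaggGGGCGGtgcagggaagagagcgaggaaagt
Col4a6, minus strand, chrX:141474077-141474326: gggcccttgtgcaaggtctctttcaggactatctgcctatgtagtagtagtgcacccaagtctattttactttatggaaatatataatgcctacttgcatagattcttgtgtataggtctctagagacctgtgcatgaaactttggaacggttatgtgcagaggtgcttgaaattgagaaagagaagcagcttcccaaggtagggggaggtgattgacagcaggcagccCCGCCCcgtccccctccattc
Each holds 1 match to the Sp1 letters, at -30 in Col4a5 and at -21 in Col4a6. In the longer stretch used for the promoter shares, which also covers bases after the start, Col4a6 holds the TEAD letters too. Col4a2, the α2 chain of the ubiquitous type IV collagen, had 31, 21 and 14 counts in PCN, 8, 7 and 2 in PN, and 6, 3 and 6 in WT. It rose in PCN by 1.78 ± 0.49 against WT (adjusted p = 0.0094) and 1.83 ± 0.47 against PN (adjusted p = 0.0033), and the first of these was lost without PCN replicate 1 (1.52 ± 0.58, adjusted p = 0.062).

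Among the other collagens, Col23a1 rose in steps and Col12a1 fell in both edited groups. Col23a1, a transmembrane collagen that is shed from the cell surface, stood at 26.1, 28.1 and 25.9 FPKM in PCN, 6.78, 5.93 and 6.33 in PN, and 0.955, 1.28 and 0.878 in WT. It was 25.8-fold higher in PCN than in WT (4.69 ± 0.12, adjusted p = 3.4e-12), 6.16-fold higher in PN than in WT (2.62 ± 0.14, adjusted p = 1.2e-08) and 4.20-fold higher in PCN than in PN (2.07 ± 0.06, adjusted p = 4.5e-21). Col16a1, a fibril-associated collagen, showed the same order at lower levels, with 3.50, 3.02 and 3.33 FPKM in PCN, 2.28, 1.84 and 1.72 in PN, and 1.14, 0.978 and 0.687 in WT. Its log2 fold changes were 1.82 ± 0.17 in PCN against WT (adjusted p = 9.4e-07), 1.07 ± 0.19 in PN against WT (adjusted p = 4.9e-04) and 0.76 ± 0.11 in PCN against PN (adjusted p = 1.7e-06).

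Col12a1, another fibril-associated collagen, stood at 0.140, 0.0641 and 0.116 FPKM in PCN, 0.129, 0.155 and 0.167 in PN, and 3.29, 4.28 and 3.73 in WT. All edited libraries lay far below WT. The fall was 34.6-fold in PCN (-5.11 ± 0.19, adjusted p = 5.9e-10) and 24.8-fold in PN (-4.63 ± 0.15, adjusted p = 1.0e-10). Col8a1, a short-chain collagen, and Col20a1 also fell in both. Col8a1 changed by -1.30 ± 0.25 in PCN (adjusted p = 9.0e-04) and -1.89 ± 0.25 in PN (adjusted p = 5.0e-05). Col20a1 changed by -3.24 ± 0.54 in PCN (adjusted p = 2.7e-04), which became -3.86 without PCN replicate 3, and by -2.01 ± 0.46 in PN (adjusted p = 0.0031). Its counts summed to 14 in PCN, 31 in PN and 108 in WT. Col14a1, a fibril-associated collagen, had 12, 4 and 7 counts in PCN, 14, 24 and 15 in PN, and 1, 0 and 0 in WT. The scaled ratio was 45.3 in PN over WT (95% interval 7.79 to 1820) and 18.4 in PCN over WT (2.98 to 756), and without WT replicate 1 the gene was at least 10.1-fold higher in PN, against a floor of 3 counts over the group. Col5a1, a fibril-initiating chain, had 14, 16 and 36 counts in PCN, against 5, 4 and 5 in WT. Its rise of 1.89 ± 0.54 (adjusted p = 0.012) was lost without PCN replicate 3 (1.34 ± 0.59, adjusted p = 0.11) or WT replicate 2 (adjusted p = 0.051).

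Fibronectin and the thrombospondins differed in which comparison they moved. Fn1, which encodes fibronectin, stood at 2.49, 2.71 and 2.47 FPKM in PCN, 1.89, 2.58 and 2.38 in PN, and 0.394, 0.390 and 0.465 in WT. It was 6.14-fold higher in PCN (2.62 ± 0.13, adjusted p = 2.2e-09) and 5.51-fold higher in PN (2.46 ± 0.15, adjusted p = 4.7e-08) than in WT, and the edited groups overlapped. Tgfbi, a TGF-β-induced matrix protein that binds integrins, stood at 24.0, 27.1 and 23.9 FPKM in PCN, 25.4, 25.6 and 23.5 in PN, and 72.4, 74.6 and 66.1 in WT. It fell in both, by -1.50 ± 0.08 in PCN (adjusted p = 5.0e-09) and -1.51 ± 0.07 in PN (adjusted p = 4.4e-09), with 0.01 ± 0.07 between PCN and PN in the fit of all 9 libraries. Thbs2, a matricellular thrombospondin, stood at 28.4, 28.3 and 28.1 FPKM in PCN, 15.4, 16.0 and 16.7 in PN, and 14.4, 14.3 and 17.3 in WT. The PCN libraries stood alone above the others, by 0.89 ± 0.08 against WT (adjusted p = 1.2e-06) and 0.82 ± 0.05 against PN (adjusted p = 4.1e-14). Thbs3 had 12, 5 and 10 counts in PCN, against 28, 23 and 27 in WT, a fall of -1.84 ± 0.39 (adjusted p = 0.0015).

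**Figure D3:**
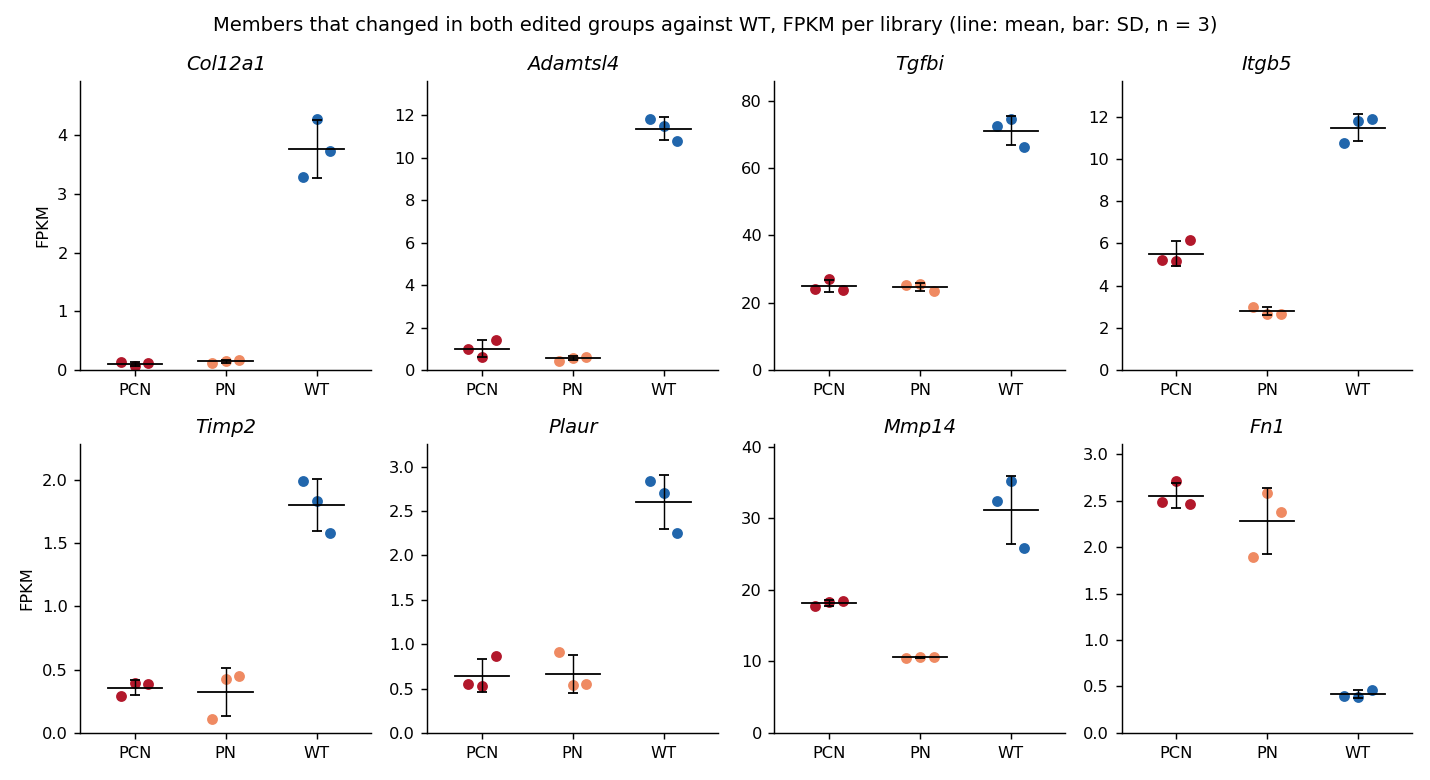
FPKM in each library of 8 genes that changed in both edited groups against WT, with the mean and SD of 3 libraries per group. Col12a1, Adamtsl4, Tgfbi, Itgb5, Timp2, Plaur and Mmp14 are lower in PCN and PN than in WT, and Fn1 is higher in both. Itgb5 and Mmp14 are lower in PN than in PCN.

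Of the 2 genes grouped as other receptors, Pdpn was found in the PCN libraries alone. Pdpn encodes podoplanin, a mucin-type membrane protein that binds the cytoskeleton through ezrin (ENSMUSG00000028583, chromosome 4, 143267431 to 143299564). It had 45, 30 and 35 counts in the libraries labelled PCN, and 0 in each of the 3 PN and 3 WT libraries. Its level was 1.23, 0.948 and 1.03 FPKM in PCN. Against a floor of 3 counts over the group, it was at least 29.3-fold higher in PCN than in WT and at least 34.4-fold higher than in PN (adjusted p = 1.7e-05 and 9.4e-09). Cd44, the hyaluronan receptor, was abundant in all groups, with 107, 104 and 96.2 FPKM in PCN, 129, 136 and 145 in PN, and 113, 124 and 119 in WT. It fell in PCN against PN by -0.42 ± 0.05 (adjusted p = 7.0e-08). The smaller log2 values of -0.20 ± 0.07 in PCN against WT (adjusted p = 0.045) and 0.22 ± 0.07 in PN against WT (adjusted p = 0.024) were each lost when single libraries were left out: PCN replicate 1, 2 or 3 or WT replicate 2 for the first (adjusted p up to 0.25), and PN replicate 2 or 3 or WT replicate 1 for the second (adjusted p up to 0.16). With trimmed-mean (TMM) scaling the first had an adjusted p of 0.17.

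**Figure D4:**
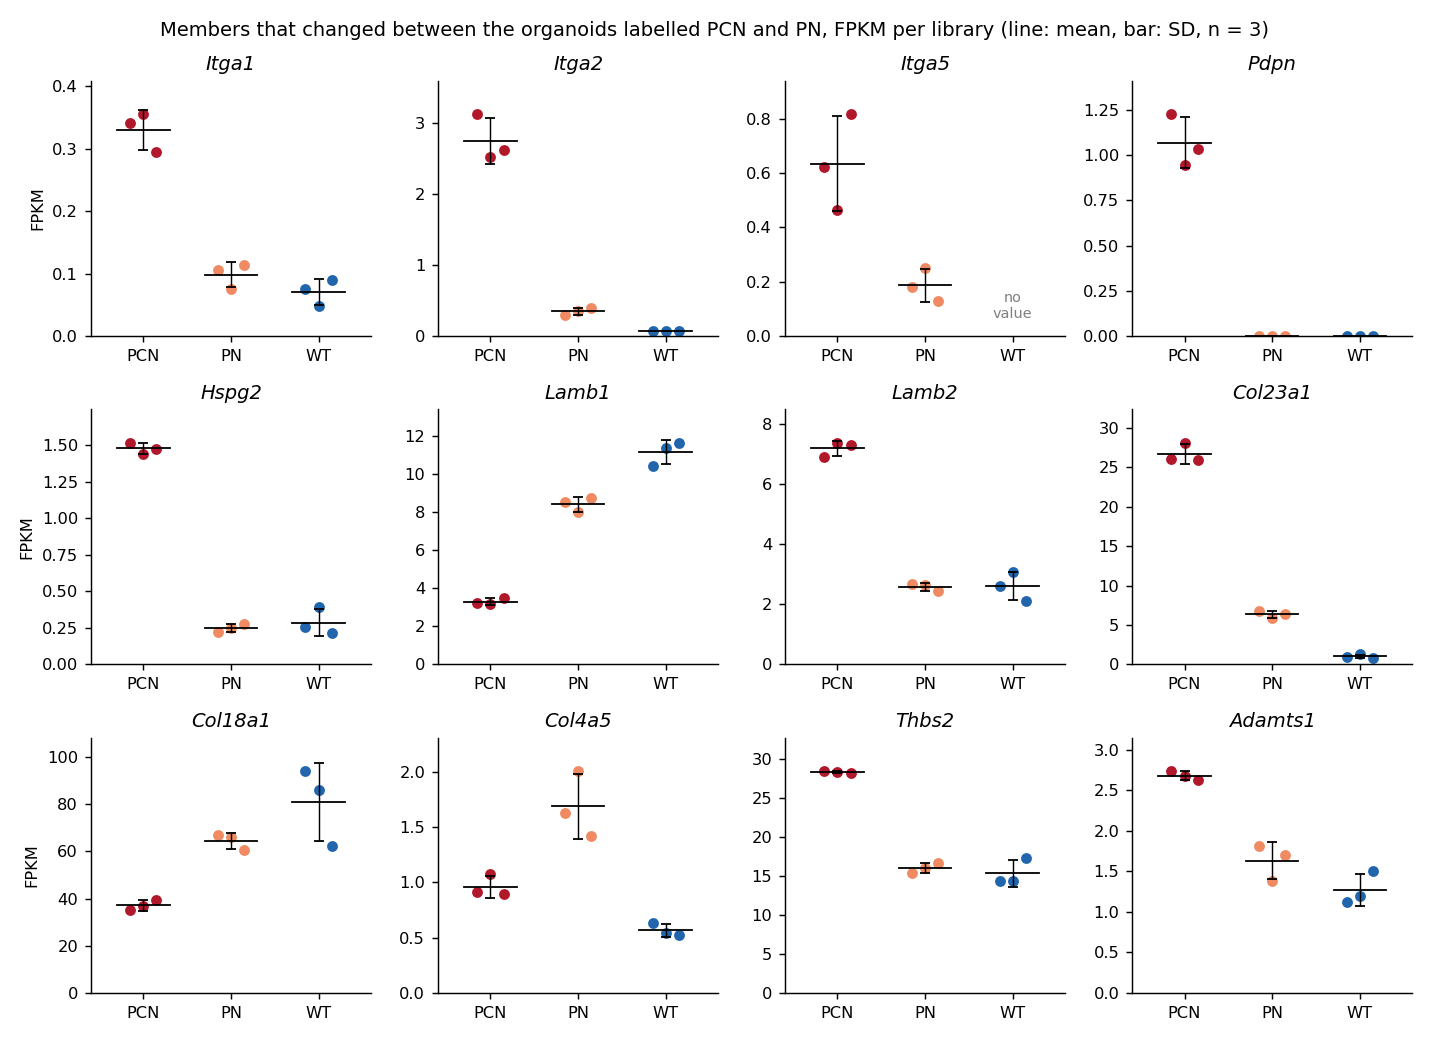
FPKM in each library of 12 genes that changed between the organoids labelled PCN and PN, with the mean and SD of 3 libraries per group. Itga1, Itga2, Itga5, Pdpn, Hspg2, Lamb2, Col23a1, Thbs2 and Adamts1 are higher in PCN than in PN, and Lamb1, Col18a1 and Col4a5 are lower. Pdpn is at 0 in all 6 PN and WT libraries.

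The genes of plasminogen activation moved apart. Plau encodes urokinase, which cleaves plasminogen to plasmin, and stood at 6.36, 6.04 and 7.92 FPKM in PCN, 3.81, 4.01 and 4.91 in PN, and 4.91, 4.46 and 4.37 in WT. It rose in PCN by 0.57 ± 0.14 against WT (adjusted p = 0.0052) and 0.67 ± 0.13 against PN (adjusted p = 1.1e-04). Plaur, its receptor, stood at 0.549, 0.526 and 0.862 FPKM in PCN, 0.907, 0.540 and 0.546 in PN, and 2.83, 2.70 and 2.25 in WT. It fell by -2.0 ± 0.25 in PCN (adjusted p = 1.8e-05) and -1.96 ± 0.25 in PN (adjusted p = 3.5e-05). The inhibitors Serpinb2 (PAI-2) and Serpine2, which act on urokinase, fell in both edited groups as well. Serpinb2 fell by -2.63 ± 0.13 in PCN (adjusted p = 2.2e-09) and -2.35 ± 0.12 in PN (adjusted p = 8.7e-09) against WT. Serpine2 fell by -2.86 ± 0.09 in PCN (adjusted p = 2.9e-11) and -0.73 ± 0.08 in PN (adjusted p = 8.3e-06) against WT.

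Of the MMPs, the membrane-bound Mmp14, Mmp15 and Mmp17 were in the tables, out of 22 protein-coding Mmp genes. Mmp14, which activates Mmp2 at the cell surface, stood at 17.8, 18.2 and 18.5 FPKM in PCN, 10.5, 10.6 and 10.6 in PN, and 32.4, 35.1 and 25.9 in WT. The groups were separate, with PN lowest. It changed by -0.77 ± 0.10 in PCN against WT (adjusted p = 3.9e-05), -1.55 ± 0.10 in PN against WT (adjusted p = 8.5e-08) and 0.78 ± 0.05 in PCN against PN (adjusted p = 1.6e-12). Mmp15 and Mmp17 rose. Mmp15 stood at 3.73, 3.48 and 4.54 FPKM in PCN, 3.39, 3.61 and 3.83 in PN, and 2.24, 2.06 and 2.32 in WT, higher by 0.83 ± 0.13 in PCN (adjusted p = 1.8e-04) and 0.72 ± 0.12 in PN (adjusted p = 2.5e-04). Mmp17 stood at 0.800, 0.963 and 1.05 FPKM in PCN, 0.798, 0.614 and 0.919 in PN, and 0.333, 0.308 and 0.140 in WT, higher by 1.85 ± 0.28 in PCN (adjusted p = 1.2e-04) and 1.59 ± 0.30 in PN (adjusted p = 9.3e-04). Timp2 encodes an inhibitor that also takes part in Mmp2 activation by Mmp14. It stood at 0.292, 0.398 and 0.386 FPKM in PCN, 0.107, 0.423 and 0.448 in PN, and 1.99, 1.83 and 1.58 in WT, lower by -2.32 ± 0.24 in PCN (adjusted p = 2.7e-06) and -2.43 ± 0.34 in PN (adjusted p = 8.3e-05).

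Of the 7 genes of the ADAMTS family, 3 proteases rose in PCN against both WT and PN, and 2 other genes of the family fell in both edited groups. Adamts1, which cleaves large proteoglycans, stood at 2.74, 2.67 and 2.63 FPKM in PCN, 1.81, 1.38 and 1.71 in PN, and 1.12, 1.19 and 1.5 in WT. It rose in PCN by 1.08 ± 0.15 against WT (adjusted p = 5.1e-05) and 0.71 ± 0.12 against PN (adjusted p = 2.7e-05). Adamts15, also a proteoglycan protease, had 39, 25 and 25 counts in PCN, 5, 1 and 5 in PN, and 0 in all 3 WT libraries. It was at least 23.7-fold higher in PCN than in WT, against a floor of 3 counts over the group, and 7.36-fold higher than in PN (2.88 ± 0.46, adjusted p = 1.2e-05). Adamts9 had 18, 23 and 14 counts in PCN, 5, 4 and 5 in PN, and 0, 0 and 1 in WT. Its scaled ratio in PCN over WT was 43.9 (95% interval 7.56 to 1760), and at least 9.69-fold without WT replicate 3, and it was 3.62-fold higher in PCN than in PN (1.86 ± 0.48, adjusted p = 0.0031). Adamts4 had 20, 4 and 6 counts in PCN, against 0, 2 and 0 in WT. It fell under the count filter, and its scaled ratio was 12 (95% interval 3.04 to 103).

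Adamtsl4, which encodes a fibrillin-associated matrix protein, stood at 0.991, 0.615 and 1.43 FPKM in PCN, 0.452, 0.589 and 0.642 in PN, and 11.8, 11.5 and 10.8 in WT. It fell in PCN (-3.48 ± 0.21, adjusted p = 3.1e-07) and in PN (-4.32 ± 0.14, adjusted p = 9.1e-11). The difference of 0.85 ± 0.26 between PCN and PN (adjusted p = 0.016) was lost without PCN replicate 1 or 3 or PN replicate 1, with a log2 value of 0.52 to 0.87 and an adjusted p of up to 0.24. Adamts17 had 11, 8 and 7 counts in PCN, 5, 9 and 5 in PN, and 34, 22 and 22 in WT. It fell by -1.90 ± 0.39 in PCN (adjusted p = 0.0014) and -2.24 ± 0.43 in PN (adjusted p = 9.5e-04). Adamtsl5 had 7.99, 7.81 and 7.77 FPKM in PN, against 9.92, 11.3 and 9.48 in WT, lower by -0.37 ± 0.09 (adjusted p = 0.0042).

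Some of these genes lie in stretches of chromosome whose listed genes moved together. Within 5 Mb of Lamb1 on chromosome 12, 27 of 28 other genes tested were lower in PCN than in PN, with a median log2 fold change of -0.98, and 27 of 28 were lower in PCN than in WT, with a median of -1.0. Lamb1 itself changed by -1.35 and -1.75 in these pairs. Near Itgb1bp1, on the same chromosome, 18 of 21 were lower in PCN than in PN, with a median of -0.82, next to -1.0 for Itgb1bp1. In PCN against WT all 21 near it were lower, with a median of -1.08, next to -0.26 ± 0.16 for Itgb1bp1, which was not listed, and in PN against WT 12 of 16 were lower, with a median of -0.91, while Itgb1bp1 rose by 0.76. Over all of chromosome 12, 274 of 298 other genes tested were lower in PCN than in PN. Near Mmp14 on chromosome 14, 80 of 81 were higher in PCN than in PN, with a median of 0.63, next to 0.78 for Mmp14. In PN against WT, 54 of 55 there were lower, with a median of -0.82, next to -1.55. In PCN against WT 31 of 51 near Mmp14 were higher, with a median of 0.41, while Mmp14 fell by -0.77. Near Plau, also on chromosome 14, all 40 were higher in PCN than in PN, with a median of 0.60, next to 0.67 for Plau. In PN against WT 31 of 34 near Plau were lower, with a median of -0.68, next to -0.11 ± 0.14 for Plau, which was not listed, and in PCN against WT 12 of 25 were higher, with a median of -0.36, next to 0.57. Over all of chromosome 14, 321 of 327 were higher in PCN than in PN and 259 of 276 were lower in PN than in WT. The part of chromosome-wide shifts in the changes of these 4 genes was not tested. Lamb2, on chromosome 9, lay among 14 genes tested of which 12 were higher in PCN than in PN, with a median of 0.32, next to 1.47 for Lamb2. Near Adamtsl4 on chromosome 3, 39 of 49 were lower in PCN than in WT, with a median of -1.1, next to -3.48 for Adamtsl4. In PN against WT 34 of 50 there were lower, with a median of -0.78, next to -4.32. In PCN against PN 18 of 29 there were lower, with a median of -0.29, while Adamtsl4 rose by 0.85. The part of these local shifts was not tested either.

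**Figure D5:**
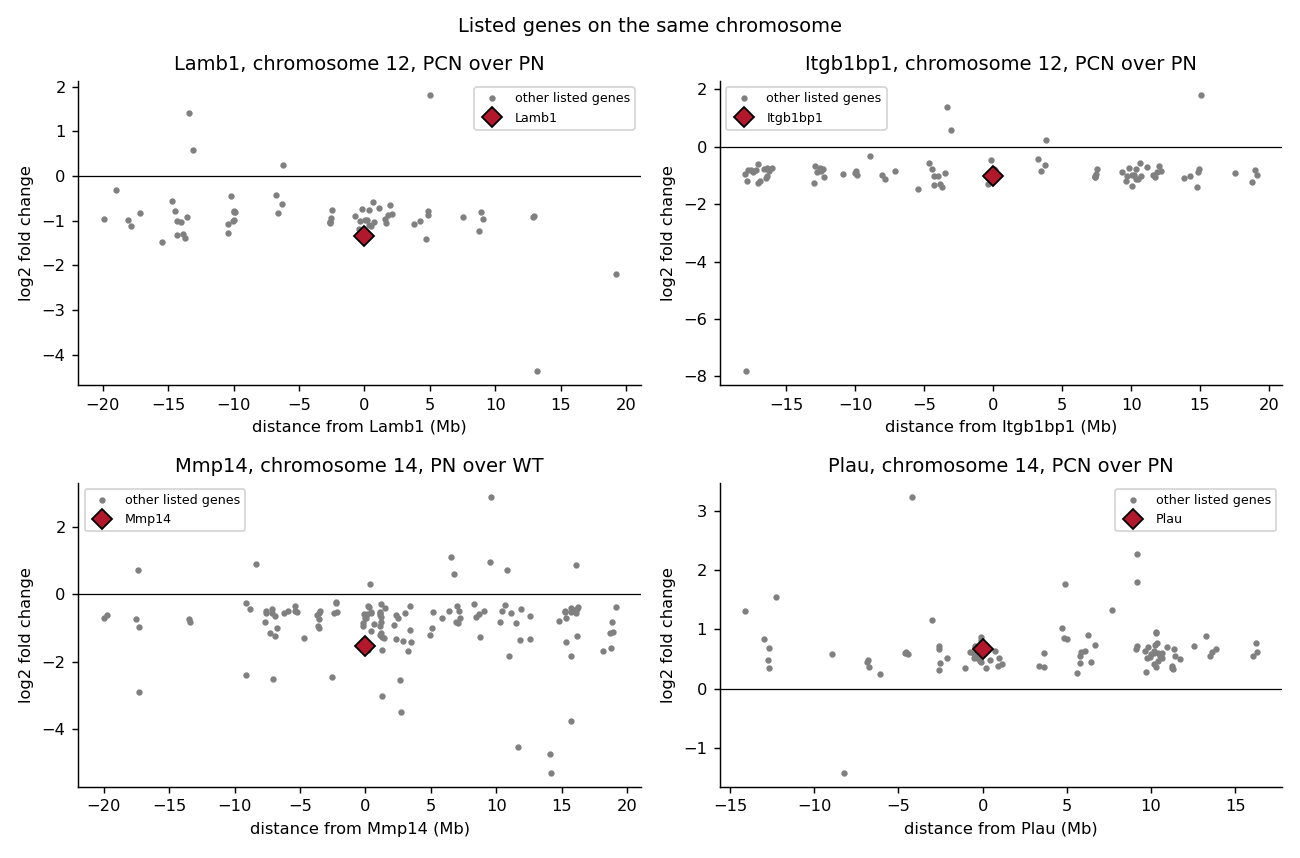
Log2 fold change of the listed genes within 20 Mb of Lamb1, Itgb1bp1, Mmp14 and Plau, against the distance between gene centres in Mb, in the pair named above each panel. Diamonds mark the named genes and grey points the others. Around Lamb1 and Itgb1bp1 most points lie below 0 in PCN over PN, around Mmp14 below 0 in PN over WT, and around Plau above 0 in PCN over PN.

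Genes that work with these components were read from fixed lists outside the name rule. Beside their counts stand those of all 8742 genes, of which 20.7% were called higher and 19.4% lower in PCN against PN, 34.6% and 37.6% in PCN against WT, and 34.6% and 36.9% in PN against WT. The medians of all genes tested were 0.16, -0.28 and -0.26 in the same order of pairs. Of 25 genes of integrin adhesion machinery, 19 were in the tables. In PCN against PN, 10 of them rose and none fell, with a median of 0.31 over the 11 listed. Fermt2, a kindlin that activates β1 integrins and whose gene lies on chromosome 14, rose by 1.09 ± 0.14 (adjusted p = 3.3e-07), Nedd9, a docking protein of focal adhesions, by 0.80 ± 0.17 (adjusted p = 6.5e-04) and Tns1, a tensin, by 0.77 ± 0.07 (adjusted p = 1.9e-10). In PCN against WT 9 rose and 8 fell, with a median of 0.30, and in PN against WT 6 rose and 7 fell, with a median of -0.21. Fermt3, the kindlin of blood cells, fell by -2.70 ± 0.21 in PCN (adjusted p = 2.4e-07) and -2.89 ± 0.18 in PN (adjusted p = 4.9e-08). Ilk, the integrin-linked kinase, rose by 1.70 ± 0.50 in PCN (adjusted p = 0.016) and 1.55 ± 0.44 in PN (adjusted p = 0.013), with summed counts of 139 in PCN, 117 in PN and 34 in WT. Cd81, a tetraspanin that associates with integrins, fell by -1.50 ± 0.09 in PN (adjusted p = 2.9e-08).

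Of 14 further basement membrane genes, 9 were in the tables. In PCN against WT 5 rose and 4 fell, with a median of 0.20, in PN against WT 4 rose and 4 fell, with a median of -0.51, and in PCN against PN 3 rose and 1 fell, with a median of 0.42. Smoc2, a calcium-binding basement membrane protein, stood at 13.0 to 13.9 FPKM in PCN, 3.48 to 4.03 in PN and 0.176 to 0.279 in WT, a rise of 5.81 ± 0.13 in PCN (adjusted p = 1.4e-12) and 3.98 ± 0.17 in PN (adjusted p = 1.4e-09). Ecm1, a glycoprotein of the epithelial matrix, stood at 30.3 to 32.1 FPKM in PCN, 29.6 to 32.1 in PN and 617 to 700.3 in WT, a fall of -4.42 ± 0.09 in PCN (adjusted p = 3.5e-13) and -4.43 ± 0.08 in PN (adjusted p = 1.6e-12). Smoc1, a relative of Smoc2, had 2 counts in PCN, 0 in PN and 54 in WT, summed over 3 libraries. Fbln2, a fibulin of basement membranes, fell in PCN against PN by -2.68 ± 0.35 (adjusted p = 3.7e-07).

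Of 18 genes of matrix assembly and crosslinking, 9 were in the tables, and 3 rose and 4 fell in PCN against WT (median -0.37), 2 rose and 4 fell in PN against WT (median -0.37) and 3 rose and 2 fell in PCN against PN (median 0.45). Loxl4, a lysyl oxidase, fell in PCN by -2.13 ± 0.14 against WT (adjusted p = 3.6e-08) and -1.96 ± 0.11 against PN (adjusted p = 5.6e-14), and Bmp1, a procollagen protease on chromosome 14, rose by 1.41 ± 0.12 against WT (adjusted p = 3.6e-07) and 1.25 ± 0.08 against PN (adjusted p = 6.2e-13). Of 11 genes of heparan sulfate proteoglycans and their modification, 7 were in the tables, and 1 rose and 4 fell in PCN against WT (median -0.73), 2 rose and 4 fell in PN against WT (median -0.63) and 3 rose and 2 fell in PCN against PN (median 0.51). Sdc1, the main epithelial syndecan, fell by -1.79 ± 0.09 in PCN (adjusted p = 1.4e-09) and -0.95 ± 0.08 in PN (adjusted p = 7.4e-07) against WT, and it lies on chromosome 12. Sulf2, a sulfatase that trims heparan sulfate, had summed counts of 5 in PCN, 4 in PN and 402 in WT, with log2 fold changes against WT of -6.54 ± 0.34 in PCN (adjusted p = 3.1e-09) and -6.74 ± 0.39 in PN (adjusted p = 2.1e-08). Of 8 ADAM proteases, 4 were in the tables, with no rise and 2 falls in PCN against WT (median -0.69), no rise and 4 falls in PN against WT (median -0.38) and 2 rises and 1 fall in PCN against PN (median 0.61). Adam17, which sheds membrane proteins and lies on chromosome 12, fell by -1.0 ± 0.08 in PCN against WT (adjusted p = 4.6e-07). Of 5 genes of the plasminogen system, 3 were in the tables, and in the comparisons with WT all 3 fell. Serpine2 alone was listed in PCN against PN, where it fell by -2.13 ± 0.09 (adjusted p = 7.5e-18).

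Markers of other cell types were read beside these changes. Of 9 fibroblast markers 1 (Twist2) was in the tables, at 1.22 to 1.51 FPKM in PCN, 0.710 to 0.900 in PN and 1.52 to 2.40 in WT. Of 5 endothelial markers 1 (Esam) was, at 1.59 to 2.10 FPKM in PCN, 1.62 to 2.09 in PN and 1.96 to 4.08 in WT. Of 5 Schwann cell and neuron markers 1 (Tubb3) was, at 0.954 to 1.32 FPKM in PCN, 2.81 to 2.94 in PN and 1.60 to 2.22 in WT. None of 5 muscle markers was. Levels of the markers outside the tables are not known here.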

How the data were processed

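RNA of 9 organoid libraries was extracted with an RNeasy Mini Kit, per the labels' protocols. CASAVA, DESeq and the builds GRCm38 and mm10 are named in the submitters' processing notes, and the sources used here name no aligner or counter. The authors deposited 3 tables, 1 for each pair of groups. Each holds, per the file headers, raw read counts per gene, normalized counts (a signal, the count divided by 1 size factor per library and pair), FPKM values, gene length, and the authors' own log2 fold changes, p-values and adjusted p-values. Only genes called by the authors at an adjusted p under 0.05 are in them. A value for a group is therefore missing where no table of that group lists the gene.

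The counts of each whole table were tested with edgeR 4.0.16 in R 4.3.3 (limma 3.58.1), with the 2-sided quasi-likelihood F test, robust dispersion, filterByExpr and the authors' size factors. Adjusted p-values are Benjamini-Hochberg over the number of genes the authors adjusted over (14758 for PCN over PN, 17300 for PCN over WT, 17165 for PN over WT), a number recovered from their p-values, at a threshold of 0.05. A refit of genes already selected by the authors is not independent evidence. FPKM constants per library were not whole numbers, so library totals could not be recovered as the design assumed. In the main fit of each pair the constants entered only through their geometric mean. In the fit of all 9 libraries they stood in for the library sizes. Log2 fold changes are given with their standard error. For a pair in which a gene was not listed, values come from 1 fit of all 9 libraries and carry no call. Where a group had 0 counts, a lower bound against 3 counts over the group is given, and where it had 1 to 3, the ratio with its 95% interval. Intervals and floors cover counting error only.

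The matrix genes and lists were chosen with earlier results of these data known. Of the 10 hemidesmosome and laminin-332 genes, 9 are named in full, and 1 is not reported here, nor are some genes of the other lists. Of each other role, genes of at least 5 FPKM in a group and the up to 4 largest changes called per pair are named, as are most of the rest, and from the other lists up to 3 per pair by size. Log2 fold changes are relative to the size factors, or to the FPKM constants where they come from the fit of all 9 libraries. Counting by strand is not stated. Exons of 15 of the 55 genes overlap another gene. Taken 1 partner at a time, only Itgb1bp1 shares at least 10% of its bases. On the opposite strand, Adamts9 shares 9.18% with A730049H05Rik and 2.82% with Gm15737. Itgb3bp shares 8.59% with Pgm1, Itgb4 7.66% with B230344G16Rik and Thbs3 6.59% with Mtx1, also on the opposite strand. Reads in these stretches cannot be told apart. Promoter sequences are from RefSeq (GRCm38.p6), annotation from GENCODE M21. No protein sequences or genome were used here. Alternatives were DESeq2 1.42.0, TMM scaling, the FPKM constants as scaling, no filter, a replicate block, 1 fit of all libraries and leaving out each library.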

Additional observations from a re-analysis of the deposited data

How the results depend on the processing

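No count of called genes moved by 1.5 times and none of the directions tested turned under the 12 alternatives run for each pair. Leaving out each library in turn gave 19 to 21 higher and 5 to 6 lower genes in PCN against PN, 20 to 22 and 19 to 21 in PCN against WT, and 11 to 14 and 20 to 24 in PN against WT. A call was lost under at least 1 alternative for 3 of the 27 genes called in PCN against PN, 5 of the 43 called in PCN against WT and 6 of the 36 called in PN against WT. DESeq2 called Itga3 (adjusted p = 0.028) and Col18a1 (adjusted p = 0.034) in PN against WT, where edgeR did not. TMM scaling moved the median of all genes by -0.03 in PCN against PN, 0.059 in PCN against WT and 0.054 in PN against WT. Genes with under 20 counts in a group carry the widest intervals.

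The libraries share replicate numbers across groups, but the labels do not say that a number marks a shared culture or day. Correlations of same-numbered deviations from the group means were -0.108 to -0.059 in PCN and PN, -0.219 to -0.076 in PCN and WT, and 0.062 to 0.169 in PN and WT, so the numbers were not taken as pairing. Only in PN and WT did every library correlate best with its own number. With the replicate block, 21 genes were higher and 5 lower in PCN against PN, 22 and 19 in PCN against WT, and 14 and 23 in PN against WT. With this block Col18a1 was called in PN against WT (-0.30 ± 0.08, adjusted p = 0.0054). The calls of Itga3 in PCN against PN (-0.13 ± 0.06, adjusted p = 0.11) and Cd44 in PCN against WT (-0.20 ± 0.10, adjusted p = 0.13) were not made with it.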
